A study of Mus musculus with 123 samples.

Results

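The Mas-related G protein-coupled receptors (Mrgpr) are a family of receptors carried by small sensory neurons, and 7 members were followed here in dorsal root ganglion (DRG) neurons of mice after sciatic nerve transection (SNT). The members were the rows with the symbols Mrgprd, Mrgpra3, Mrgpra4, Mrgprb4, Mrgprb5, Mrgprx1 and Mrgpre, which are 7 of 24134 genes and 7 of 20 rows named Mrgpr. Their levels are given in CPM, the value of a gene divided by the total of its library and multiplied by 1e6, so that no gene length enters and levels are compared between groups and not between genes. Single somata were picked by hand, and each was made into 1 library by Smart-seq2, which amplifies full-length cDNA and carries no molecular identifiers. SNT of the right sciatic nerve at mid-thigh was done in 2-month-old adults under anaesthesia with xylazine at 10 mg/kg and ketamine at 100 mg/kg, and the DRG of the other side of the same mice was the control. At day 3 the mice were F1 offspring of CAST/Eij males and C57BL/6 females, reads were of 50 bp, and 41 SNT-side and 18 control-side cells were kept of 48 and 22. At day 7 the mice were C57BL/6, reads were of 75 bp, and all 33 SNT-side and 14 control-side cells were kept. Pooled neurons were taken at day 3 only.

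Every control neuron came from an operated animal, so no uninjured mouse was sampled. The protocol text of the day-7 samples names both days, and the day was taken from their titles. The labels name L5 ganglia at day 3, whereas the series text names L3 to L5, and no label names an animal, so that all cells of 1 side and day count as 1 sample. Differences between groups of cells are therefore described without a test, SDs in cells are taken over the cells of a group, and intervals of shares are exact binomial (Clopper-Pearson) 95% intervals that cover counting error only. For the pools, dissociated neurons of a side were lysed together and split into 3 parts (the sources used here differ on how many neurons, and no number is given), so that the 3 libraries of a side are technical parts of 1 lysate and a p-value between the sides measures that spread. The side of a pooled library was taken from its column name. The line of identifiers in the same table gives the opposite sides for these 6 columns, and with those sides each pooled difference below would have the opposite sign. The source label calls all 6 intact. Atf3, a transcription factor induced in injured neurons, was at 1466 ± 133 CPM in the libraries named as SNT side and at 13.5 ± 7.03 CPM in those named as control side (SD, n = 3).

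Mrgpr proteins have 7 membrane-spanning segments and sense small molecules and peptides, and several couple through Gq and phospholipase C to ion channels such as Trpa1. Mrgprd marks the nonpeptidergic nociceptors (NP) that end in the epidermis, Mrgpra3 and Mrgprx1 mark itch-sensing neurons, and Mrgprb4 marks C fibres that respond to stroking of the skin. During development the transcription factor Runx1 is required for the expression of many Mrgpr genes in these neurons.

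All 7 genes lie on mouse chromosome 7 (GRCm38), each with its coding sequence in 1 or 2 exons. Mrgpra3 (chr7:47588950-47601372), Mrgpra4 (chr7:47980794-47982296), Mrgprx1 (chr7:48020971-48027597), Mrgprb5 (chr7:48168017-48168985) and Mrgprb4 (chr7:48198213-48199178) form a cluster on the minus strand. Mrgpre (chr7:143778363-143784500, minus strand) and Mrgprd (chr7:145314835-145324059, plus strand) lie apart from it. Coding sequences of Mrgpra3 and Mrgpra4 were 82.7% identical and those of Mrgprb4 and Mrgprb5 84.5%, whereas Mrgprd matched the other 6 at 53.8% to 57.5%. Because the reads were short, this similarity bears on how reads were shared out among the genes, so the longest coding run common to each pair is shown first. The run of 76 bases in Mrgpra3 (chr7:47589886-47589961) and Mrgpra4 (chr7:47981618-47981693), on the minus strand, holds whole reads of 50 bp that match both genes, and so does the run of 57 bases in Mrgprb4 (chr7:48198265-48198321) and Mrgprb5 (chr7:48168069-48168125).
Mrgpra3 and Mrgpra4: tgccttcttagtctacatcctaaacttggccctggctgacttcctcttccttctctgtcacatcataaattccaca
Mrgprb4 and Mrgprb5: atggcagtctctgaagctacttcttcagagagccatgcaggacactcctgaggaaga

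Elsewhere the same genes are easily told apart. The coding stretches of 60 bases in which each pair differs most held 21 differences, and capitals mark the differing bases in Mrgpra3 (chr7:47589811-47589870), Mrgpra4 (chr7:47981543-47981602), Mrgprb4 (chr7:48198412-48198471) and Mrgprb5 (chr7:48168216-48168275), all on the minus strand.
Mrgpra3: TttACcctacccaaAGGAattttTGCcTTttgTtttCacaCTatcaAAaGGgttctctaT
Mrgpra4: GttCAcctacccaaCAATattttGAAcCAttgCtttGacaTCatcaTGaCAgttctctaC
Mrgprb4: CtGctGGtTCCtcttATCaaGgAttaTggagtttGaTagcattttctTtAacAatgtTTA
Mrgprb5: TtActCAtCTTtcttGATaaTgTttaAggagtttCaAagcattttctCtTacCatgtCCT
Over whole transcripts (GENCODE M21), no window of 50 bases of Mrgprd occurred in another gene. Of the windows of Mrgpra3 7.143% did so, and of those of Mrgpra4 13.1%, of Mrgprb4 1.45%, of Mrgprb5 0.810%, of Mrgprx1 5.84% and of Mrgpre 1.54%. Values that are not whole made up 20% of the values of Mrgprd above 0 in day-3 and pooled libraries and 70.7% of those of Mrgpra3, 76.3% of Mrgpra4, 43.3% of Mrgprb4, 66.7% of Mrgprb5, 26.5% of Mrgprx1 and 92% of Mrgpre, beside 28.6% over all genes. Mrgprd thus had such values with no shared window, and Mrgpre had the highest share of them with few shared windows. Low values of the members that share windows are uncertain. The windows of Mrgpre were shared with 127 genes, none of them an Mrgpr, and at 75 bp they were shared with none.

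Mrgprb4 and Mrgprb5 are also alike before their start, which is shown because their pooled levels went opposite ways. Of the 300 bases around the RefSeq start (GRCm38.p6), 82% were identical, against 44.8% to 48.9% for the other pairs of the 6 members with such a window. For Mrgprb4 and Mrgprb5 this start is the first coding base, so their windows hold 50 coding bases. In the other members with a window it lies outside the coding sequence, so the 82% is not like for like with the other pairs. The 140 bases before both transcripts (Mrgprb4 chr7:48199289-48199428 and Mrgprb5 chr7:48169096-48169235, minus strand) were 78.6% identical and differ at 30 positions, in capitals.
Mrgprb4: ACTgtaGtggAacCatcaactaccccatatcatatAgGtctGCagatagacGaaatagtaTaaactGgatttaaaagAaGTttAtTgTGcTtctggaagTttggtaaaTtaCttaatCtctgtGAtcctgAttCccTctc
Mrgprb5: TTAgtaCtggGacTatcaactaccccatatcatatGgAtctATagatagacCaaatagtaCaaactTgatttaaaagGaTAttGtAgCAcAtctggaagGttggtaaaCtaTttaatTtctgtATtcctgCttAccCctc
The RUNX core TGTGGT, searched on both strands, was in none of the 6 member windows of 300 bases and in 16.8% of 32851 such windows of all genes. This says only that these letters are not in these windows.

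Kept cells held 261351 to 1849130 counts, and the pools 563462 to 2003817, with the SNT-side pools all deeper than the control-side pools. Summed neuronal markers lay between 6191 and 17598 CPM in kept cells, and summed glial markers between 541 and 14928 CPM. In the 11 cells that the authors removed as outliers, the glial sum was 43461 to 103594 CPM. Day-7 cells held more of the markers of large myelinated neurons (median sum 2658 CPM in control and 2846 in SNT cells) than day-3 cells (145 and 173). The days also differ in strain, read length and instrument, so levels were not compared between them.

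In pooled neurons at day 3, Mrgprd was nearly absent on the SNT side, Mrgprb5 and Mrgprx1 fell, and Mrgprb4 rose. By edgeR's quasi-likelihood test, calling a gene changed when its adjusted p (Benjamini-Hochberg) was under 0.05 and its log2 change was larger than 1 in size, 3 of 7 members were lower and 1 was higher on the SNT side, beside 7.114% of all 13509 genes tested that were lower and 8.85% that were higher. The median log2 change was -0.94 over the members and 0.018 over all genes tested. In a pool, fewer cells of a type and less RNA per cell cannot be told apart.

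**Figure D1:**
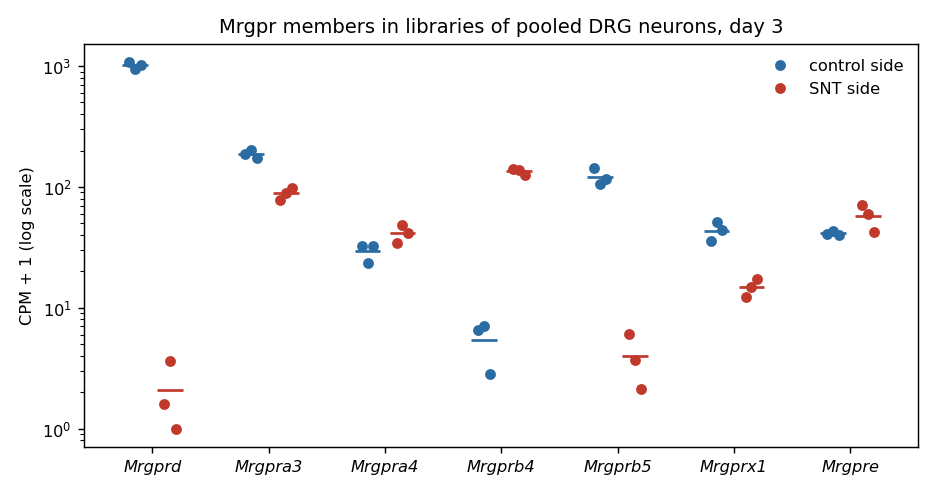
The 7 Mrgpr members in libraries of pooled DRG neurons at day 3, as CPM + 1 on a log scale, with 1 point a library (3 control-side and 3 SNT-side parts of 1 lysate each) and a line at the mean. SNT-side points of Mrgprd (0 to 2.61 CPM) and Mrgprb5 (1.11 to 5.06 CPM) lie far below the control-side points, those of Mrgprb4 (124 to 139 CPM) lie above them, and those of Mrgpre overlap.

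Mrgprd, a receptor for beta-alanine, was at 1074, 938 and 1022 CPM in the 3 control-side libraries and at 0.598, 2.61 and 0 CPM in the 3 SNT-side libraries, where it had 1, 3 and 0 counts. The groups did not overlap. Its log2 change was -9.91 (SE 0.28, edgeR, Benjamini-Hochberg adjusted p = 4.07e-27), a size that rests on these few counts. Mrgprb5, a member with no well-established ligand, was at 142, 105 and 115 CPM on the control side and at 5.06, 2.69 and 1.11 CPM on the SNT side. Its means were 121 ± 18.985 and 2.95 ± 1.99 CPM, and it fell by a fitted 38.4-fold (log2 change -5.26, SE 0.36, edgeR, Benjamini-Hochberg adjusted p = 2.75e-15), without overlap of the libraries.

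Mrgprb4 went the other way. Its 3 control-side libraries held 5.49, 6.03 and 1.83 CPM and its 3 SNT-side libraries 139, 138 and 124 CPM. Every SNT-side library lay above every control-side library, and the log2 change was 4.96 (SE 0.33, edgeR, Benjamini-Hochberg adjusted p = 1.42e-15), or 31.1-fold. Over all genes tested, 16.8% had all SNT-side libraries above all control-side libraries and 21.3% had all below.

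Of the 2 members that mark itch-sensing neurons, Mrgprx1, the mouse receptor for the peptide BAM8-22, was at 34.4, 50.0 and 42.6 CPM on the control side and at 11.4, 13.9 and 16.3 CPM on the SNT side. Its SNT-side libraries all lay below the control-side libraries, and it fell 2.70-fold (log2 change -1.44, SE 0.33, edgeR, Benjamini-Hochberg adjusted p = 0.000956). With all libraries thinned to the smallest one, Mrgprx1 no longer passed (log2 change -0.88, edgeR, Benjamini-Hochberg adjusted p = 0.102). Mrgpra3, the chloroquine receptor, was at 185, 202 and 173 CPM on the control side and 76.8, 87.3 and 97.6 CPM on the SNT side, again without overlap. Its log2 change of -0.94 (SE 0.18, edgeR, Benjamini-Hochberg adjusted p = 6.45e-05) passed the limit on p and stayed under the limit on size. It passed both limits with library size alone as the scaling (-1.10), after thinning (-1.22) and without SNT-side library 3 (-1.04).

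Mrgpra4, a relative of Mrgpra3 that responds to RF-amide peptides, was at 31.4, 22.6 and 31.6 CPM in control-side and 33.5, 47.5 and 40.3 CPM in SNT-side libraries, with a log2 difference of 0.66 (SE 0.30, edgeR, Benjamini-Hochberg adjusted p = 0.102). Mrgpre, an orphan receptor with a broad distribution, was at 39.9, 41.8 and 39.2 CPM against 69.5, 58.7 and 41.2 CPM, and its libraries overlapped (log2 difference 0.63, SE 0.26, edgeR, Benjamini-Hochberg adjusted p = 0.0742). Neither passed the test. Other markers moved between the pools too. Summed markers of NP neurons were at 1899 to 1955 CPM in control-side and 548 to 616 CPM in SNT-side libraries, and the glial sum was at 12943 to 15666 against 6372 to 7194 CPM. Their part in the differences of the receptors was not tested.

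Of the 13 other rows named Mrgpr, 5 had enough reads in the pools to be tested and 4 of these were lower, beside 7.114% of all genes tested. Mrgpra9 fell from 83.9 ± 6.24 to 13.8 ± 2.54 CPM (log2 change -2.46), Mrgpra2b from 58.4 ± 27.9 to 7.49 ± 2.16 CPM (-2.79), Mrgpra6 from 45.8 ± 12.9 to 6.23 ± 3.238 CPM (-2.75) and Mrgpra1 from 20.7 ± 5.59 to 4.33 ± 1.53 CPM (-2.13). Mrgpra2a was at 14.9 ± 19.1 and 9.74 ± 2.76 CPM (edgeR, Benjamini-Hochberg adjusted p = 0.744). Over the control-side libraries in order, Mrgpra2a was at 0, 8.26 and 36.5 CPM, while Mrgpra2b fell in the same order. In day-3 and pooled libraries, 67.6% of the Mrgpra2a values above 0 and 89.7% of those of Mrgpra2b were not whole. How reads were shared out between Mrgpra2a and Mrgpra2b was not tested, so the contrast between them is uncertain. The 8 rows without enough reads, among them the mast cell receptors Mrgprb1 and Mrgprb2, did not exceed 1.38 CPM in any pooled library.

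In single cells at day 3, Mrgprd was at 1287 to 2396 CPM in 6 of 18 control cells, at 85.8 CPM in cell 5 and at 21.6 CPM or less in the other 11. It was at 10 CPM or more in 9 of 18 control cells (50%, 26.02 to 73.98) and in 10 of 41 SNT cells (24.4%, 12.4 to 40.3), and these intervals overlap. Its lowest, median and highest values were 0, 7.301 and 2396 CPM in control cells and 0, 0 and 2013 CPM in SNT cells, with means of 638 ± 942 and 142 ± 497 CPM. The log2 ratio of the mean CPM + 1 of SNT cells over control cells was -2.16. Mrgprb5 was at 76.4 ± 98.1 CPM in control cells (highest 264) and 28.9 ± 73.0 CPM in SNT cells (highest 287), a log2 ratio of -1.37. These were the 2 of 7 members with a ratio below -1, and none was above 1, beside 6.07% of 13663 genes below and 7.121% above.

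The ratios of the other members over all cells of a side were closer to 0. Mrgpra3 was at 136 ± 313 CPM in control cells and 121 ± 289 CPM in SNT cells (log2 ratio -0.16), Mrgpra4 at 50.3 ± 123 and 34.9 ± 104 CPM (-0.52), and Mrgprx1 at 34.1 ± 71.4 and 33.03 ± 94.7 CPM (-0.04). In each of these the SD over cells exceeded the mean, since a few cells carried most of the counts. Mrgprb4 was the most uneven, at 104 ± 429 CPM in control cells with 1821 CPM in 1 cell, and at 84.3 ± 309 CPM in SNT cells. Its ratio of -0.30 became 3.73 when the highest cell of each side was left out, so that 1 control cell set its sign. The small negative ratios of Mrgpra3, Mrgpra4 and Mrgprx1 turned positive too when the highest cell of each side was left out. With medians over cells in place of means, 4 members (Mrgprd, Mrgpra3, Mrgpra4 and Mrgprx1) lay below -1, but no share over all genes was taken with medians. Mrgprb5 was not among these 4, since its median was 0 on both sides. Mrgpre was found in nearly every neuron, at 10 CPM or more in 18 of 18 control cells and 40 of 41 SNT cells, with means of 57.4 ± 34.1 and 48.7 ± 30.5 CPM (-0.23).

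The kept SNT-side cells of day 3 fell into 2 sets by Atf3. The Atf3-high set (limit 500 CPM) had 30 cells with 951 to 4436 CPM. The Atf3-low set (limit 100 CPM) had 11 cells with 0.650 to 23.04 CPM, and no kept cell lay between the limits. Of the SNT-side cells removed as outliers, cells 34 and 40 did, at 255 and 180 CPM. All members but Mrgpre were at 28.6 CPM or less in every Atf3-high cell. Mrgprd was at 3.67 ± 8.33 CPM in the 30 Atf3-high cells, whereas it was at 520 ± 880 CPM in the 11 Atf3-low cells, with a lowest, median and highest value of 0, 4.78 and 2013 CPM. In the 30 Atf3-high cells together Mrgprd had 135 counts, or 3.411 CPM of their summed counts (exact Poisson 95% interval 2.86 to 4.04, for counting error only). Mrgpra3 reached 5.22 CPM at most in Atf3-high cells and 1005 CPM in Atf3-low cells, where its mean was 450 ± 415 CPM and its median 587 CPM. Mrgprb4 reached 2.98 CPM in Atf3-high cells and 1490 CPM in Atf3-low cells (313 ± 551 CPM).

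**Figure D2:**
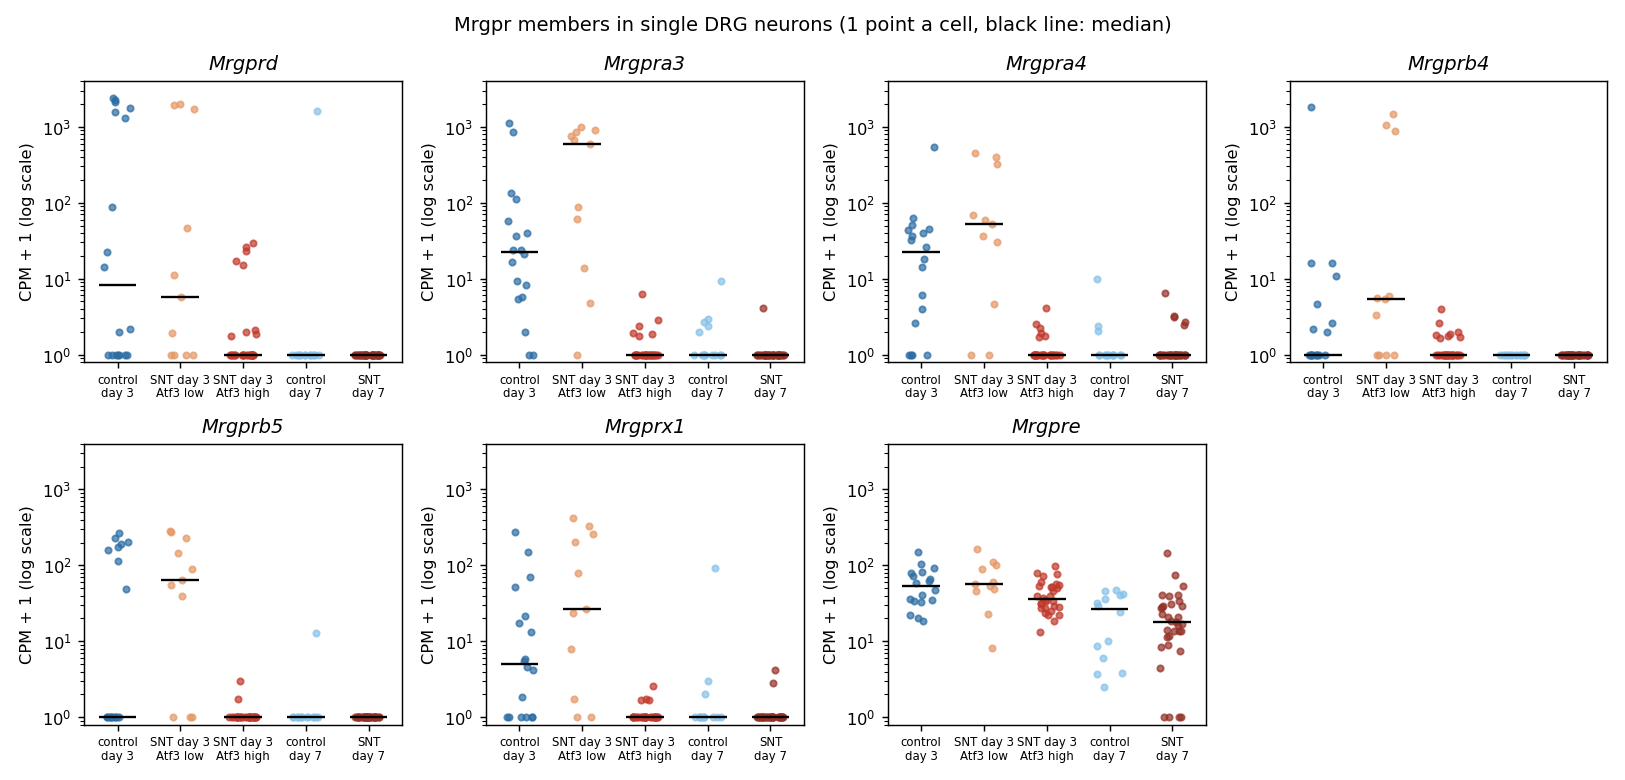
The 7 members in single DRG neurons as CPM + 1 on a log scale, with 1 point a cell and a black line at the median, for control cells of day 3 (18), SNT cells of day 3 with Atf3 below 100 CPM (11) or at 500 CPM or more (30), control cells of day 7 (14) and SNT cells of day 7 (33). In Atf3-high cells 6 members stay at or below 28.6 CPM, while the values of Mrgpre overlap between all day-3 groups.

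The remaining members showed the same split. Mrgpra4 reached 3.154 CPM in Atf3-high and 452 CPM in Atf3-low cells, Mrgprb5 reached 2.02 and 287 CPM, and Mrgprx1 reached 1.58 and 421 CPM. At 10 CPM or more, 5 of 30 Atf3-high cells held any of these 6 receptors, each of them Mrgprd, and 9 of 11 Atf3-low cells held at least 2. The log2 ratios of Atf3-high over Atf3-low cells were -6.80 for Mrgprd, -8.37 for Mrgpra3, -6.67 for Mrgpra4, -7.90 for Mrgprb4, -6.63 for Mrgprb5 and -6.79 for Mrgprx1. For Mrgpre the ratio was -0.70, with 41.5 ± 20.4 CPM in Atf3-high and 68.2 ± 44.04 CPM in Atf3-low cells and ranges (12.3 to 98.5 and 7.095 to 162 CPM) that overlap. Thus 6 of 7 members had a ratio below -1 and none above 1, beside 10.3% of 13616 genes below and 11% above. These sizes depend on the 1 CPM added to each mean, and with 10 CPM added they were -3.76 for Mrgpra4, -4.97 for Mrgprb4, -3.54 for Mrgprb5 and -3.71 for Mrgprx1.

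The median total was 1336796 counts in Atf3-high and 1174013 in Atf3-low cells. With each cell thinned to 200000 counts, 6 members again had a ratio below -1 (-7.08 for Mrgprd). The sets differed in markers of neuron types. Summed markers of peptidergic neurons had a median of 234 CPM in Atf3-high and 3464 CPM in Atf3-low cells, and those of NP neurons (P2rx3, Lpar3, Scn11a and Plxnc1) 247 and 2092 CPM. Their part in the differences of the receptors was not tested. At the limits, the Atf3-low cell with the most Atf3 (cell 1, 23.04 CPM) held 1005 CPM of Mrgpra3, 1490 CPM of Mrgprb4 and 0.922 CPM of Mrgprd, and the Atf3-high cell with the least Atf3 (cell 36, 951 CPM) held 0 of all members except Mrgpre (27.1 CPM).

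Set against the same 18 control cells, the 2 sets of SNT cells lay apart. The log2 ratios of Atf3-high cells over control cells were -7.10 for Mrgprd, -6.64 for Mrgpra3, -5.33 for Mrgpra4, -6.32 for Mrgprb4, -6.15 for Mrgprb5, -4.97 for Mrgprx1 and -0.46 for Mrgpre, so that 6 of 7 were below -1, beside 11.2% of 13656 genes below and 9.21% above. For Atf3-low cells over control cells they were -0.30 for Mrgprd, 1.72 for Mrgpra3, 1.34 for Mrgpra4, 1.59 for Mrgprb4, 0.49 for Mrgprb5, 1.82 for Mrgprx1 and 0.24 for Mrgpre, with 4 of 7 above 1, beside 2.08% of 13452 genes above and 3.86% below. Both comparisons use the same control cells and are therefore not independent. Mrgpra3 was at 500 CPM or more in 6 of the 11 Atf3-low cells and in 2 of the 18 control cells.

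To set cells that share a marker side by side, cells with P2rx3, an ATP-gated channel of NP neurons, at 100 CPM or more were taken, which left 12 control, 15 Atf3-high and 7 Atf3-low cells. A cell whose P2rx3 had fallen under this level is not among them. The sets differed in other markers. Summed markers of peptidergic neurons had medians of 1605 CPM in control, 338 CPM in Atf3-high and 2845 CPM in Atf3-low cells. Those of large myelinated neurons reached 1603, 305 and 260 CPM in the same order. Their part in the differences of the receptors was not tested. P2rx3 itself was at 1190 ± 577 CPM in these control cells, 1966 ± 828 CPM in the Atf3-high cells and 977 ± 678 CPM in the Atf3-low cells. In the same cells Mrgprd was at 956 ± 1021, 7.202 ± 10.8 and 815 ± 1005 CPM, with a highest value of 28.6 CPM in the Atf3-high cells. Mrgprb5 was at 111 CPM in control and 154 CPM in Atf3-low cells and at 0 in 15 of 15 Atf3-high cells, and Mrgpra3 was at 108, 465 and 0.335 CPM in control, Atf3-low and Atf3-high cells. The log2 ratio of Atf3-high over control cells was -6.87 for Mrgprd, -6.35 for Mrgpra3, -4.65 for Mrgpra4, -1.91 for Mrgprb4, -4.71 for Mrgprx1 and -0.42 for Mrgpre, and 6 of 7 members were below -1, beside 14% of 13471 genes below and 11% above. Of these 6, Mrgprb4 was low in the control cells too, with a mean of 3.79 CPM and a highest value of 15.2 CPM. Mrgprx1 rested mostly on 1 control cell at 277 CPM, and its median there was 1.99 CPM.

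**Figure D3:**
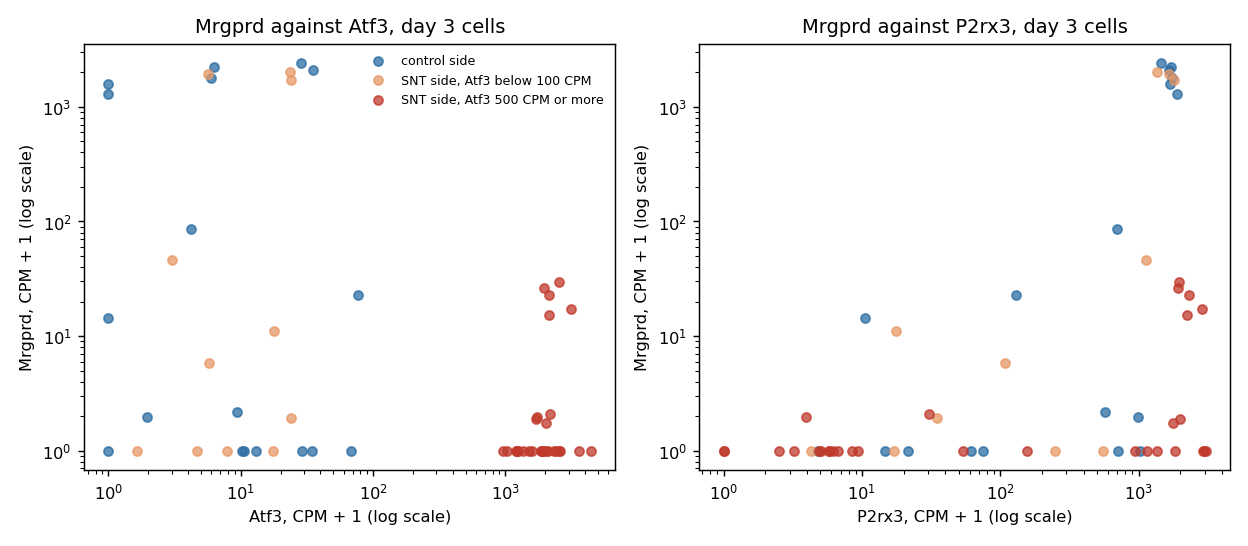
Mrgprd against Atf3 (left) and against P2rx3 (right) in the 59 kept day-3 cells, as CPM + 1 on log scales, with 1 point a cell, coloured as control side, SNT side with Atf3 below 100 CPM, or SNT side with Atf3 at 500 CPM or more. Cells above 1000 CPM of Mrgprd occur at low Atf3 on both sides, and Atf3-high cells with P2rx3 above 1000 CPM stay at or below 28.6 CPM of Mrgprd.

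At a high level of P2rx3 most cells of the sets lay apart in Mrgprd. Of 7 control cells with P2rx3 at 1000 CPM or more, 6 had Mrgprd at 1000 CPM or more, and of 4 such Atf3-low cells 3 did. Among 13 such Atf3-high cells none did, and Mrgprd lay between 0 and 28.6 CPM with a median of 0.750 CPM. The exception among Atf3-low cells was cell 8, with 1133 CPM of P2rx3 and 44.7 CPM of Mrgprd. The exception on the control side was cell 7, with 1030 CPM of P2rx3 and 0 of Mrgprd. This cell and control cell 4 held 4165 and 4804 CPM of Th, a marker of low-threshold C fibres, whose marker sum reached 4871 CPM in the control cells chosen by P2rx3 and 31.4 CPM at most in the SNT-side ones. Its part in the differences of the receptors was not tested. The 5 Atf3-high cells with Mrgprd at 10 CPM or more (14.2 to 28.6 CPM) all held P2rx3 at 1931 to 2862 CPM and Atf3 at 1948 to 3145 CPM. Raising the limit to 500 CPM of P2rx3, a limit added after the data were seen, left 11 control, 14 Atf3-high and 5 Atf3-low cells and again 6 members with a ratio below -1.

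The 6 receptors other than Mrgpre occurred in combinations that recurred on both sides. At 100 CPM or more, 6 of 18 control cells (33.3%, 13.3 to 59.0) held Mrgprd with Mrgprb5, and 2 of these held Mrgpra3 too. In these cells (2, 6, 8, 11, 13 and 21) Mrgprd was at 1287 to 2396 CPM and Mrgprb5 at 159 to 264 CPM, Mrgpra3 at 19.8 to 134 CPM and Mrgpra4 at 31.1 to 61.4 CPM, while Mrgprb4 did not exceed 15.2 CPM and Mrgprx1 did not exceed 16.3 CPM. Among Atf3-low cells, cells 6 and 16 had the same pair, with 1927 and 2013 CPM of Mrgprd and 287 and 147 CPM of Mrgprb5. Cell 17 had 1718 CPM of Mrgprd with 89.9 CPM of Mrgprb5, just under that level. Cell 16 stood out from these, since it also held 860 CPM of Mrgpra3.

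A second combination was Mrgpra3 and Mrgprx1 with Mrgprb5, in control cell 5 (849, 277 and 112 CPM in that order) and in Atf3-low cells 8 (758, 257 and 230 CPM) and 44 (587, 421 and 273 CPM). In these 3 cells Mrgprb4 did not exceed 9.75 CPM and Mrgprd did not exceed 85.8 CPM. The third was Mrgpra3 and Mrgpra4 with Mrgprb4, in control cell 10 (1112, 537 and 1821 CPM) and in Atf3-low cells 1 (1005, 452 and 1490 CPM), 9 (675, 326 and 886 CPM) and 23 (902, 398 and 1055 CPM). Mrgprx1 was at 151, 204, 334 and 79.3 CPM in these 4 cells. Mrgpra4 passed 100 CPM in no other cell of day 3, and neither did Mrgprb4. The remaining 10 control cells, 3 Atf3-low cells and all 30 Atf3-high cells held none of the 6 receptors at 100 CPM. At 10 CPM, 11 of 18 control cells held at least 2 of the 6 and 2 held all 6, although reads shared between the genes bear most on such low values.

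**Figure D4:**
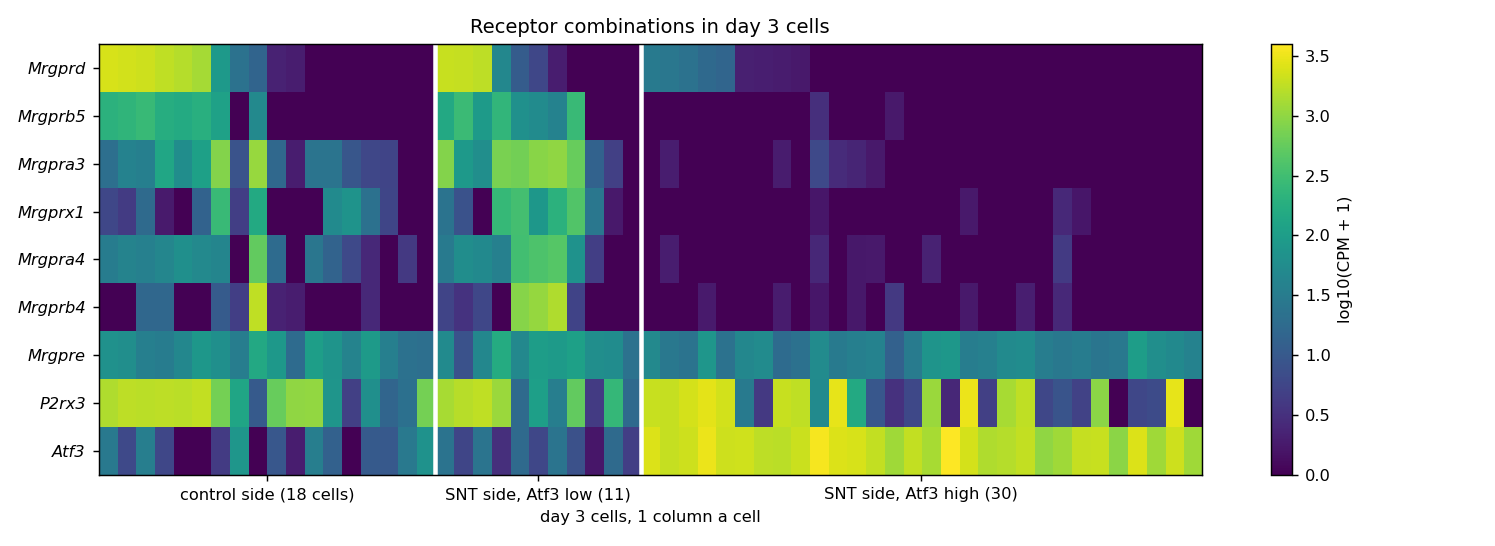
Levels of the 7 members, P2rx3 and Atf3 in the 59 kept day-3 cells, with 1 column a cell, coloured by log10(CPM + 1) and grouped as control side (18 cells), SNT side with low Atf3 (11) and SNT side with high Atf3 (30). Mrgprb5 is high in the columns of high Mrgprd and in 3 others, Mrgpra4 and Mrgprb4 are both above 100 CPM in 4 columns, and the Atf3-high block is dark for all members but Mrgpre.

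Among 9210 genes that averaged 10 CPM or more in control cells, the 5 most like Mrgprd over the 18 control cells were Lpar5 (Pearson's r of log2(CPM + 1) 0.960), Mrgprb5 (0.947), Fryl (0.925), Cd55 (0.922) and Lpar3 (0.922). The cells share 1 side and 1 preparation, and these values are descriptive. Lpar5 and Lpar3, receptors for lysophosphatidic acid, were at 116 and 530 CPM in the 6 cells with Mrgprd at 1000 CPM or more and at 1.22 and 1.14 CPM in the other 12. Cd55, a complement-regulating surface protein, was at 1909 and 304 CPM, and Fryl at 505 and 151 CPM. In Atf3-low and Atf3-high cells, Lpar5 was at 30.3 and 0.168 CPM, Lpar3 at 136 and 1.95 CPM, Cd55 at 1084 and 42.8 CPM, and Fryl at 198 and 117 CPM. Between members, r over the same cells was 0.87 for Mrgpra3 and Mrgpra4, 0.04 for Mrgprd and Mrgprx1, and 0.16 for Mrgprd and Mrgprb4.

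Other genes that Mrgprd neurons are known for mostly fell in the pools. Of 5 (P2rx3, Lpar3, Scn11a, Plxnc1 and Agtr1a), 4 fell, beside 7.114% of all genes, with a median log2 change of -1.88 over the list. Lpar3 fell from 280 ± 19.2 to 0.733 ± 0.642 CPM (log2 change -8.07, edgeR, Benjamini-Hochberg adjusted p = 4.35e-22), Scn11a, a sodium channel of nociceptors, by 1.88, Agtr1a by 2.26 and P2rx3 by 1.23 on the log2 scale. Plxnc1 (-0.84) passed on p and not on size. Over Atf3-high against Atf3-low cells, 4 of the 5 had a log2 ratio below -1, beside 10.3% of all genes, with Scn11a at 9.79 and 810 CPM, and P2rx3 was at 988 and 628 CPM. Between the SNT and control side, P2rx3 stood at -1.23 in the pools and at 0.15 in day-3 cells (891 and 803 CPM). Between the 2 sets of SNT-side cells, which is another comparison, it was at 0.65.

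Of the 7 genes that regulate Mrgpr neurons during development, 2 fell and 1 rose in the pools (median log2 change -0.48), beside 7.114% and 8.85% of all genes. Runx1 fell from 104 ± 11.6 to 17.3 ± 4.29 CPM (log2 change -2.43, edgeR, Benjamini-Hochberg adjusted p = 1.05e-09). Gfra2, the neurturin co-receptor that works with Ret, fell from 464 ± 27.8 to 18.6 ± 1.72 CPM (-4.48, edgeR, Benjamini-Hochberg adjusted p = 6.47e-22), and Gfra1, the GDNF co-receptor, rose by 2.70 on the log2 scale. In cells, Runx1 was at 105 CPM in control, 38.1 CPM in Atf3-low and 35.7 CPM in Atf3-high cells. Its log2 ratio was -1.44 for Atf3-low over control cells and -0.09 for Atf3-high over Atf3-low cells. Gfra2 was at 381, 182 and 20.7 CPM in control, Atf3-low and Atf3-high cells. The part of these regulators in the differences of the receptors was not tested.

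Among 15 genes through which Mrgpr receptors signal, 14 were tested in the pools, 4 fell and 4 rose, beside 7.114% and 8.85% of all genes, with a median log2 change of -0.22. Those that fell were Gnaq, the alpha subunit of Gq (-1.53), Plcb3, a phospholipase C (-2.54), and the channels Trpa1 (-2.72) and Trpv1 (-3.04). Among those that rose were Plcb4 (1.93), the potassium channel gene Kcnq3 (1.44) and the chloride channel gene Ano1 (3.3101). Over Atf3-high against Atf3-low cells, Plcb3 was at 45.5 and 758 CPM, Trpa1 at 5.13 and 175 CPM, and Gnaq at 117 and 380 CPM, and 5 of 14 genes had a log2 ratio below -1 and 3 above 1, beside 10.3% and 11% of all genes. Trpv1, which fell in the pools, was at 63.6 and 102 CPM in these sets (-0.67), and its ratio of Atf3-high over control cells among those chosen by P2rx3 was 3.05. In the Atf3-low over control comparison none of these 14 passed 1 in either direction, beside the 3.86% and 2.08% of all genes that did.

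Day 7 held few cells with any of the 6 receptors on either side. Mrgprd was found in 1 of 14 control cells, cell 14 at 1588 CPM, and in none of 33 SNT cells, which allows a share of up to 9.09% when a count of 0 is read as at most 3 cells (exact binomial upper bound 10.6%). Control cell 14 also held 91.6 CPM of Mrgprx1, 11.9 CPM of Mrgprb5 and 947 CPM of P2rx3. Mrgprb4 was at 0 in all 47 cells, which by the same reading allows up to 21.4% of control and 9.09% of SNT cells (exact binomial upper bounds 23.2% and 10.6%). Mrgprb5 was at 0 in all 33 SNT cells, Mrgpra3 did not exceed 8.39 CPM on the control side and 3.126 CPM on the SNT side, and Mrgpra4 did not exceed 8.85 and 5.45 CPM.

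By the mean CPM + 1, 2 of 7 members (Mrgprd and Mrgprx1, both among the 3 that averaged 1 CPM or more) were lower than -1 on the SNT side at day 7, beside 3.49% of 13320 genes below and 6.37% above, and without the highest cell of each side none was. The day-7 difference in these receptors is thus that of 1 control cell. That cell is labelled male. In female cells alone no member was below -1, beside 7.72% of all genes. Only 1 member, Mrgpre, averaged 1 CPM or more there, and the others were too low on both sides for a ratio below -1. In male cells alone Mrgprd and Mrgprx1 were below -1, 2 of the 3 members that averaged 1 CPM or more, beside 4.21% of such genes. P2rx3 was at 100 CPM or more in 4 of 14 control and 6 of 33 SNT cells, and a difference of Mrgprd was not detectable at this number of cells. Mrgpre was again present on both sides, at 22.8 ± 17.3 CPM in control cells (lowest 1.48, median 25.9, highest 45.97) and 23.98 ± 27.3 CPM in SNT cells (0, 16.96 and 146), with a log2 ratio of 0.07.

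Mrgprb4 had opposite signs in the pools (4.96) and in the means over cells of day 3 (-0.30), where the sign rests on 1 control cell and the ratio without the highest cell of each side was 3.73. In the pools it was at 4.45 ± 2.29 and 134 ± 8.72 CPM on the control and SNT side, and in cells at 104 ± 429 and 84.3 ± 309 CPM. It passed 100 CPM in 1 of 18 control cells (5.56%, 0.141 to 27.3), in 3 of 11 Atf3-low cells (27.3%, 6.02 to 61.0) and in none of 30 Atf3-high cells. Mrgprd was lower on the SNT side in both, at 1011 ± 68.6 and 1.07 ± 1.37 CPM in pools and 638 and 142 CPM in cells, although 3 of the 41 SNT cells held it above 1000 CPM while the 3 SNT-side pools held no more than 2.61 CPM. Of the other Mrgpr genes that averaged 1 CPM or more over these cells, 5 were lower in Atf3-high than in Atf3-low cells by more than 1 on the log2 scale. Over all 13616 such genes 10.3% were. Mrgprf, the remaining one, was at 1.59 CPM in Atf3-high and 0.456 CPM in Atf3-low cells. Mrgpra1, Mrgpra2a, Mrgpra2b, Mrgpra6 and Mrgpra9 had means of 26.2, 27.9, 49.3, 27.9 and 72.3 CPM in control cells, of 42.4, 39.3, 86.3, 30.5 and 76.6 CPM in Atf3-low cells, and of 0.127, 0.379, 0.977, 0.233 and 0.173 CPM in Atf3-high cells.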

How the data were processed

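The authors processed reads with CASAVA 1.8.2, Bowtie2 and RSEM on mm9, per the labels, and deposited tables named TPM that hold expected counts: totals differ between libraries (223967 to 2003817), and in each library most nonzero values (63.3% to 93.9%) are whole within 0.01. Libraries were scaled to CPM. For the pools, expected counts were rounded and tested with edgeR 4.0.16 in R 4.3.3 (TMM, mean of at least 1 CPM, prior count 0.125), as the design had fixed for counts. Cells were analysed in Python 3.11.15 on the table without the 11 outliers, with a pseudocount of 1 CPM and backgrounds of genes averaging 1 CPM or more. No doublet caller was run on these hand-picked cells. The edgeR script was tested on simulated counts. Sequences and places come from RefSeq and GENCODE M21 on GRCm38 and no mm9 coordinate was used.

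Named genes were the 7 members, the other Mrgpr rows, the 5 genes most correlated with Mrgprd in control cells, Atf3 and P2rx3 as the genes that choose cells, and lists of signalling partners, regulators and other genes of Mrgprd neurons, with up to 4 genes of each list by size of change, apart from 1 gene not reported here. Members and lists were chosen with earlier results of these data known. Alternatives were the scaling, filter, prior count, pseudocount, DESeq2 1.42.0, limma 3.58.1, a replicate block, each library left out, medians, thinned cells, and cells of each sex. Thinned pools, higher P2rx3 and co-detection limits, leaving out the highest cell of P2rx3 cells, and summed counts were added after the data were seen.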

Additional observations from a re-analysis of the deposited data

How the results depend on the processing

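Scaling by library size alone shifted all genes by their median, from 0.018 to -0.14, and moved the share of changed genes that were lower from 44.55% to 56.33% (2157 changed genes in the reported fit and 2244 with this scaling). Leaving out each library gave 1879 to 2150 changed genes, DESeq2 gave 1761 and a filter of 10 CPM gave 1649. Values of single members were of 3 kinds. A pooled change counted as kept when its call stayed. A cell ratio did so when it shifted by less than the SD of log2(CPM + 1) over the cells compared. A number of cells did so when it stayed within a set factor. By these rules 298 values were kept and 55 moved. That SD is wide for these receptors, so a kept ratio can still have changed much in size. In the pools Mrgpra3 gained a call under 3 settings and Mrgprx1 lost it under 1.

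At day 3, medians over cells gave 4 members lower in place of 2, without a share over all genes to set beside them. Mrgprb5, which was lower by means, was not among these 4, since its median was 0 on both sides. At day 7, where 2 members were lower, the number was 4 with a pseudocount of 0.1 CPM and 1 with 10 CPM, 0 with medians, 0 without the highest cell of each side, 0 in female cells and 4 in male cells, of which Mrgpra3 and Mrgprb5 averaged under 1 CPM over the male cells. Of the members, only Mrgpre averaged 1 CPM or more over the female cells.

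The replicate numbers of the pools name parts of a lysate and do not pair the sides: deviations of same-numbered libraries correlated at 0.068, -0.015 and -0.010 across genes. With a replicate block 2009 genes changed. No single-cell result has a paired form, since cells of the sides share only a number. With 0 to 3 counts of Mrgprd per SNT-side pool, the size of its change is limited by depth.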

Other observations

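The 11 cells that the authors removed as outliers, all of day 3, held little of the receptors. Mrgprd was found in 3 of them, at up to 12.9 CPM, Mrgpra3 in 3 at up to 25.8 CPM, and Mrgprb5 in none. Mrgpre was found in 10 of the 11, with a median of 35.4 CPM and a highest value of 78.8 CPM. The neuronal marker sum of these cells was 224 to 3594 CPM.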
